A study of Rattus norvegicus with 74 samples.

Results

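The circadian clock of the liver was followed through 10 of its genes in young Wistar Han rats given a brominated flame retardant, phenobarbital or a polychlorinated biphenyl. The genes were chosen by name: Arntl (also called Bmal1) and Clock, Per1, Per2, Per3 and Cry1, Nr1d1 and Nr1d2, and Dbp and Tef. All 10 were measured, by 19 of the 20826 probe sets that the array annotation ties to a single gene, and they are 10 of 14217 genes in all.

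RNA of the left liver lobe was read on 74 Affymetrix arrays in 15 groups, and every animal was a Crl:WI (Han) rat dosed by oral gavage. PBDE-47, a single tetrabrominated diphenyl ether, and DE-71, a commercial mixture of brominated diphenyl ethers, were given at 0, 0.1, 15 and 50 mg/kg. Their dams were dosed from gestation day 6 to 21 and the pups from postnatal day 12 to 21. Livers of all 15 groups, those of phenobarbital and PCB126 included, were taken at postnatal day 22. Phenobarbital, which activates the nuclear receptor CAR, was given at 0, 5 and 45 mg/kg, and PCB126, a dioxin-like polychlorinated biphenyl that activates the aryl hydrocarbon receptor, at 0, 10, 50 and 250 in a unit that the labels write as mg/kg. The protocol text that all samples share gives exposure in utero and after birth until postnatal day 22, names doses for the brominated agents, and has no separate schedule for phenobarbital and PCB126. The labels give no sex, no litter and no time of day at which the livers were taken. Each group held 5 arrays, except DE-71 50 mg/kg with 4 (replicates 2 to 5). Arrays that were nearly identical within a group were averaged, which leaves 72 samples and n = 4 in the PBDE-47 0, DE-71 15 and DE-71 50 mg/kg groups and n = 5 in the others. In 2 further cases a 15 mg/kg array was nearly identical to a 50 mg/kg array of the same agent (PBDE-47 replicate 3 of each dose, and DE-71 15 replicate 5 with DE-71 50 replicate 4), so these groups are not fully separate. No label ties a sample to a litter, and the p values therefore reflect only how these samples vary.

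In the molecular clock, the proteins of Arntl and Clock pair on E-box sequences and switch on the Per and Cry genes, whose proteins then block the pair. The same pair drives Nr1d1 and Nr1d2, which encode the nuclear receptors REV-ERB alpha and beta, and these repress Arntl through ROR elements. Dbp and Tef encode bZIP factors that bind D-box sequences and pass the rhythm on to metabolic genes of the liver. In the liver of adult rodents most of these transcripts swing strongly over the day, Arntl in roughly the opposite phase to Nr1d1 and Dbp, so that the level in a single liver depends on when it was taken.

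Promoters are shown for the 4 members in which a clock motif was found, to place the motifs beside the values that follow. RefSeq (GRCr8) gave promoter windows for 9 of the 10 genes, 11 windows in all, with Cry1 not among them. Both strands were searched for the E-box CACGTG, its variant CACGTT, the ROR elements TAGGTCA and TGGGTCA, and the D-box TTANGTAA. The search covered 300 bases, from 250 before the start to 50 after it. The sequences printed are the 250 bases before the start, and capitals mark the motif. Arntl lies at chr1:176766078-176766327 and Tef at chr7:115206577-115206826 on the plus strand. Per2 lies at chr9:99496994-99497243, and Nr1d1 has an upstream start at chr10:84231813-84232062 and a downstream start at chr10:84229455-84229704, all on the minus strand.
Arntl: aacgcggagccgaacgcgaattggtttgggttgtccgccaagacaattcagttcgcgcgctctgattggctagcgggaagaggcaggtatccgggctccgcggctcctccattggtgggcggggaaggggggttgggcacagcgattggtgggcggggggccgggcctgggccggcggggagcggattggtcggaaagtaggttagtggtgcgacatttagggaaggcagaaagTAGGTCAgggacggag
Per2: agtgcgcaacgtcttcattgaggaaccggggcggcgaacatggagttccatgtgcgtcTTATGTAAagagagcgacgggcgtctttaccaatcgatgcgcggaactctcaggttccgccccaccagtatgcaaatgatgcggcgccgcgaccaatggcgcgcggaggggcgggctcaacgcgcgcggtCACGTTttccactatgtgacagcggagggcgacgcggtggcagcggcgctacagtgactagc
Nr1d1, upstream start: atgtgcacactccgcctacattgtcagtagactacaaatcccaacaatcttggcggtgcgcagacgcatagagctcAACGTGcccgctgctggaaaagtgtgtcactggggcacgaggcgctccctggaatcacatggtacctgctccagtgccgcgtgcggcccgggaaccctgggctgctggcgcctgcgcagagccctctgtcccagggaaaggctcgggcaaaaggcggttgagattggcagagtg
Nr1d1, downstream start: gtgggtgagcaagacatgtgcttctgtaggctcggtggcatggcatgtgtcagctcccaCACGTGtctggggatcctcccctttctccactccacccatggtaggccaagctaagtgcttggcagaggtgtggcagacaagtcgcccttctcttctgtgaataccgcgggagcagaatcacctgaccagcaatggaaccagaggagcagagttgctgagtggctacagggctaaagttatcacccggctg
Tef: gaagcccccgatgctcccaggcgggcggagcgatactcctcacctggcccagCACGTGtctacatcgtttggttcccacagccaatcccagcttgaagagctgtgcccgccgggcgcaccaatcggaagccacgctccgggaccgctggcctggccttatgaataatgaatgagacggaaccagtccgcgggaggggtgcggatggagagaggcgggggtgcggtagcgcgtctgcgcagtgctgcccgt

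The Arntl window held TAGGTCA with its first base at position -16 from the start. CACGTG stood in the Tef window at -198 and in the downstream Nr1d1 window at -191. Per2 carried CACGTT at -62 and TTATGTAA at -192, and the upstream Nr1d1 window carried the variant on the other strand at -174. These matches describe letters only: CACGTG was found in 6.42% of all 33469 promoter windows, CACGTT in 4.83%, either ROR element in 6.6% and the D-box in 2.24%. The motifs do not overlap in these windows. The windows of Clock, Per1, Per3, Nr1d2 and Dbp held none of these letters, from which nothing follows about the factors.

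Every level below is the log2 expression of the brightest probe set of the gene, given as mean ± SD, and levels of different genes are not compared because probe sets differ in brightness. Between agents the levels are only loosely comparable. The mean SD of the sorted values was 0.025 to 0.047 within an agent and 0.07 over all arrays, which is how separate normalization of each agent would look, although no label states it. A gene is said to rise or fall where limma gave an adjusted p below 0.05 over all genes. In bulk tissue, fewer cells of a type and less RNA per cell cannot be told apart.

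Arntl encodes BMAL1, the obligate partner of CLOCK. With PBDE-47, Arntl averaged 7.0 ± 0.31 at 0, 6.98 ± 0.29 at 0.1, 6.94 ± 0.32 at 15 and 6.84 ± 0.16 at 50 mg/kg. With DE-71, Arntl averaged 6.82 ± 0.47 at 0, 7.04 ± 0.2 at 0.1, 6.85 ± 0.45 at 15 and 6.23 ± 0.85 at 50 mg/kg. The DE-71 50 mg/kg mean was the lowest of all 15 groups and stood 0.58 below its next neighbour, a wider step than the pooled within-group SD of 0.344. With Phenobarbital, Arntl averaged 7.26 ± 0.34 at 0, 7.46 ± 0.05 at 5 and 7.1 ± 0.21 at 45 mg/kg. With PCB126, Arntl averaged 6.82 ± 0.23 at 0, 7.06 ± 0.16 at 10, 6.91 ± 0.42 at 50 and 7.07 ± 0.21 at 250 mg/kg. The highest mean was that of phenobarbital 5 mg/kg, whose samples lay within an SD of 0.05.

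In the DE-71 50 mg/kg group Arntl stood at 4.98 in replicate 2, 6.52 in replicate 3, 6.57 in replicate 4 and 6.86 in replicate 5. Its controls stood at 7.15, 7.03, 6.5, 6.16 and 7.24. Replicate 2 was below every other sample of the study, while the other 3 treated samples lay inside the control range. The difference was -0.58 (SE 0.22, 95% confidence interval -1.03 to -0.14) and was not called (adjusted p = 0.084). Leaving out replicate 2 took it to -0.17 (adjusted p = 0.8). Leaving out DE-71 0 replicate 4 (-0.75, adjusted p = 0.026), DE-71 50 replicate 4 (-0.69, adjusted p = 0.044) or DE-71 50 replicate 5 (-0.79, adjusted p = 0.023) took it past the threshold.

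Clock encodes the partner of BMAL1 in the activating complex. With PBDE-47, Clock averaged 7.85 ± 0.03 at 0, 7.83 ± 0.25 at 0.1, 7.92 ± 0.06 at 15 and 7.95 ± 0.11 at 50 mg/kg. With DE-71, Clock averaged 7.59 ± 0.22 at 0, 7.78 ± 0.28 at 0.1, 7.66 ± 0.08 at 15 and 7.31 ± 0.46 at 50 mg/kg. The DE-71 50 mg/kg group was again lowest, with 6.66 in replicate 2 and 7.62, 7.33 and 7.63 in the other samples, and its mean stood 0.28 below the next group. That step also exceeded the pooled SD, which was 0.189 for Clock. The difference of -0.28 from the controls (adjusted p = 0.15) passed the threshold without DE-71 50 replicate 3 (-0.38, adjusted p = 0.047). Leaving out DE-71 50 replicate 2 took it to -0.06 (adjusted p = 0.88). With Phenobarbital, Clock averaged 7.71 ± 0.11 at 0, 7.67 ± 0.1 at 5 and 7.77 ± 0.16 at 45 mg/kg. With PCB126, Clock averaged 7.71 ± 0.21 at 0, 7.74 ± 0.07 at 10, 7.66 ± 0.2 at 50 and 8.0 ± 0.09 at 250 mg/kg. At 250 mg/kg of PCB126 the 5 values (7.86, 8.1, 8, 8.02 and 8.01) were all above the control mean, with a difference of 0.29 (interval 0.06 to 0.53) that was not called (adjusted p = 0.77). Another probe set of Clock fell by 0.51 at 50 mg/kg of DE-71 (adjusted p = 0.023 over 20826 probe sets, of which 7.63% were called there), and the remaining 2, both dim, gave 0.17 and 0.15. The probe sets of Clock thus differed in sign.

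Per1, a PER repressor whose gene also answers glucocorticoids, separated the agents more than the doses. With PBDE-47, Per1 averaged 6.79 ± 0.2 at 0, 6.99 ± 0.33 at 0.1, 6.83 ± 0.23 at 15 and 6.74 ± 0.26 at 50 mg/kg. With DE-71, Per1 averaged 7.39 ± 0.11 at 0, 7.19 ± 0.4 at 0.1, 7.43 ± 0.19 at 15 and 7.2 ± 0.24 at 50 mg/kg. All PBDE-47 groups averaged below all groups of the other agents. With Phenobarbital, Per1 averaged 7.49 ± 0.31 at 0, 7.44 ± 0.24 at 5 and 7.49 ± 0.19 at 45 mg/kg. With PCB126, Per1 averaged 7.53 ± 0.14 at 0, 7.46 ± 0.14 at 10, 7.34 ± 0.31 at 50 and 7.24 ± 0.22 at 250 mg/kg. No step between neighbouring groups exceeded the pooled SD of 0.248, and the largest dose difference was -0.29 at 250 mg/kg of PCB126.

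Per2, the second PER repressor, was the member with the widest spread. With PBDE-47, Per2 averaged 7.3 ± 0.36 at 0, 7.43 ± 0.22 at 0.1, 7.14 ± 0.28 at 15 and 7.0 ± 0.37 at 50 mg/kg. With DE-71, Per2 averaged 6.82 ± 0.65 at 0, 6.77 ± 0.44 at 0.1, 5.99 ± 0.6 at 15 and 6.18 ± 0.57 at 50 mg/kg. At 15 mg/kg of DE-71 the samples stood at 5.45 (replicates 1 and 2, averaged), 6.84, 5.8 and 5.89, and at 50 mg/kg at 5.83, 5.83, 6.03 and 7.02. Their controls stood at 7.64, 6.21, 6.17, 6.79 and 7.31, so 3 of 4 treated samples at each dose lay below all 5 controls and the groups overlapped through the remaining sample. The differences were -0.83 at 15 mg/kg (interval -1.38 to -0.27, adjusted p = 0.16) and -0.64 at 50 mg/kg (interval -1.2 to -0.09, adjusted p = 0.13). The first passed the threshold without DE-71 15 replicate 3 (-1.11, adjusted p = 0.034), and the other without DE-71 50 replicate 5 (-0.92, adjusted p = 0.032). Without DE-71 0 replicate 1 they were -0.62 (adjusted p = 0.41) and -0.44 (adjusted p = 0.37). With Phenobarbital, Per2 averaged 6.5 ± 0.21 at 0, 6.8 ± 0.32 at 5 and 6.53 ± 0.39 at 45 mg/kg. With PCB126, Per2 averaged 7.58 ± 0.64 at 0, 7.46 ± 0.17 at 10, 7.36 ± 0.45 at 50 and 7.61 ± 0.45 at 250 mg/kg. The other probe set of Per2 gave 0.23 at 50 mg/kg of DE-71 (adjusted p = 0.09), opposite in sign to the main one.

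Per3, whose protein is the PER least needed for the core loop, was dim in every group. With PBDE-47, Per3 averaged 4.18 ± 0.22 at 0, 4.2 ± 0.36 at 0.1, 4.55 ± 0.46 at 15 and 4.82 ± 0.12 at 50 mg/kg. With DE-71, Per3 averaged 4.51 ± 0.39 at 0, 4.48 ± 0.34 at 0.1, 4.54 ± 0.55 at 15 and 4.69 ± 0.32 at 50 mg/kg. With PBDE-47 at 50 mg/kg the values were 5, 4.72, 4.86, 4.7 and 4.84, against 4.32, 4.41, 3.93 and 4.07 in the controls, and the groups did not overlap. The difference of 0.64 (SE 0.2, interval 0.24 to 1.05) missed the threshold at an adjusted p of 0.055. With Phenobarbital, Per3 averaged 4.6 ± 0.36 at 0, 4.4 ± 0.24 at 5 and 4.82 ± 0.23 at 45 mg/kg. With PCB126, Per3 averaged 3.89 ± 0.19 at 0, 3.98 ± 0.15 at 10, 3.82 ± 0.23 at 50 and 3.7 ± 0.25 at 250 mg/kg. All PCB126 groups averaged below all groups of the other agents. The dimmer probe set of Per3 gave -0.06 at 50 mg/kg of PBDE-47 and rose by 0.25 at 50 mg/kg of DE-71 (adjusted p = 0.035 over 20826 probe sets), where the main one gave 0.18.

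Cry1 encodes the cryptochrome that holds the CLOCK and BMAL1 complex silent late in the cycle. With PBDE-47, Cry1 averaged 8.31 ± 0.18 at 0, 8.27 ± 0.21 at 0.1, 7.99 ± 0.47 at 15 and 7.73 ± 0.22 at 50 mg/kg. With DE-71, Cry1 averaged 7.83 ± 0.48 at 0, 7.98 ± 0.55 at 0.1, 7.36 ± 0.71 at 15 and 7.11 ± 0.46 at 50 mg/kg. Its mean was lower at 15 and 50 mg/kg than at 0 mg/kg for both brominated agents. With Phenobarbital, Cry1 averaged 7.93 ± 0.33 at 0, 8.02 ± 0.17 at 5 and 7.66 ± 0.42 at 45 mg/kg. With PCB126, Cry1 averaged 8.16 ± 0.23 at 0, 8.13 ± 0.17 at 10, 8.04 ± 0.31 at 50 and 8.08 ± 0.24 at 250 mg/kg. With PBDE-47 at 50 mg/kg the values were 7.39, 7.66, 7.89, 7.75 and 7.96, against 8.39, 8.06, 8.33 and 8.47 in the controls. Those groups did not overlap, yet the difference of -0.58 (interval -1.06 to -0.10) was not called (adjusted p = 0.18).

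At 50 mg/kg of DE-71, Cry1 fell 1.64-fold (-0.72, SE 0.24, interval -1.2 to -0.24, adjusted p = 0.043). The treated samples stood at 6.7, 7.71, 6.82 and 7.22 and the controls at 8.46, 7.35, 7.88, 7.36 and 8.08. All 4 treated samples lay below the control mean, and the groups overlapped through replicate 3. The difference ranged from -0.56 to -0.92 when 1 sample was left out, and leaving out any 1 of 6 of the 9 samples lost the call. These were DE-71 0 replicates 1 (adjusted p = 0.16), 3 (0.06) and 5 (0.1) and DE-71 50 replicates 2 (0.28), 4 (0.11) and 5 (0.057).

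Nr1d1 encodes REV-ERB alpha, the main repressor of Arntl, and was dim in every group. With PBDE-47, Nr1d1 averaged 4.38 ± 0.22 at 0, 4.54 ± 0.27 at 0.1, 4.51 ± 0.21 at 15 and 4.71 ± 0.18 at 50 mg/kg. With DE-71, Nr1d1 averaged 4.89 ± 0.75 at 0, 4.88 ± 0.77 at 0.1, 5.19 ± 0.68 at 15 and 5.39 ± 0.41 at 50 mg/kg. The DE-71 controls alone ran from 4.1 to 5.92, wider than the whole range of group means in any agent. With Phenobarbital, Nr1d1 averaged 4.9 ± 0.18 at 0, 4.88 ± 0.19 at 5 and 4.99 ± 0.29 at 45 mg/kg. With PCB126, Nr1d1 averaged 4.01 ± 0.19 at 0, 4.06 ± 0.25 at 10, 4.08 ± 0.16 at 50 and 3.97 ± 0.18 at 250 mg/kg. PCB126 groups held the lowest means. No Nr1d1 difference was called, the largest being 0.5 at 50 mg/kg of DE-71 (adjusted p = 0.2), which passed without DE-71 0 replicate 4 (0.76, adjusted p = 0.036). Without DE-71 0 replicate 1 that difference was 0.31 (adjusted p = 0.52).

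Nr1d2 encodes REV-ERB beta, which backs up REV-ERB alpha. With PBDE-47, Nr1d2 averaged 7.04 ± 0.33 at 0, 7.08 ± 0.33 at 0.1, 7.78 ± 0.4 at 15 and 7.88 ± 0.08 at 50 mg/kg. With DE-71, Nr1d2 averaged 7.52 ± 0.76 at 0, 7.66 ± 0.48 at 0.1, 7.95 ± 0.65 at 15 and 8.1 ± 0.34 at 50 mg/kg. PBDE-47 samples stood at 6.75, 7.51, 6.98 and 6.9 in the controls, at 8.2, 8.14, 7.79, 7.36 and 7.41 at 15 mg/kg, and at 7.88, 8.03, 7.82, 7.84 and 7.84 at 50 mg/kg. The 50 mg/kg group did not overlap its controls, and its SD of 0.08 was the smallest of all groups for this gene. The difference was 0.85 (SE 0.27, interval 0.31 to 1.38, adjusted p = 0.054) at 50 mg/kg and 0.74 (interval 0.21 to 1.28, adjusted p = 0.21) at 15 mg/kg. Without PBDE-47 0 replicate 2, the highest control, the 50 mg/kg difference was 1 (adjusted p = 0.037). Without replicate 1, the lowest control, it was 0.75 (adjusted p = 0.18). Of the other probe sets of Nr1d2, the brighter gave 0.89 at 50 mg/kg (adjusted p = 0.18 over probe sets) and the dimmer, at 2.98 in controls, gave 0.07. With Phenobarbital, Nr1d2 averaged 7.81 ± 0.27 at 0, 7.43 ± 0.37 at 5 and 8.14 ± 0.28 at 45 mg/kg. With PCB126, Nr1d2 averaged 7.02 ± 0.43 at 0, 7.56 ± 0.11 at 10, 7.36 ± 0.37 at 50 and 7.39 ± 0.47 at 250 mg/kg. In the DE-71 controls Nr1d2 ran from 6.54 in replicate 1 to 8.66 in replicate 2, the lowest and the highest Nr1d2 values of the study. The DE-71 50 mg/kg difference, 0.58 over all samples (adjusted p = 0.16), passed the threshold without control replicate 2 (0.87, adjusted p = 0.025). Without control replicate 1 it was 0.33 (adjusted p = 0.5).

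Dbp encodes a D-box activator and is a direct E-box target, and its group means were dim. With PBDE-47, Dbp averaged 4.41 ± 0.11 at 0, 4.42 ± 0.26 at 0.1, 4.49 ± 0.19 at 15 and 4.59 ± 0.19 at 50 mg/kg. With DE-71, Dbp averaged 4.81 ± 0.42 at 0, 4.62 ± 0.34 at 0.1, 4.83 ± 0.52 at 15 and 5.71 ± 1.32 at 50 mg/kg. At 50 mg/kg of DE-71 it rose 1.87-fold (0.9, SE 0.27, interval 0.36 to 1.44, adjusted p = 0.021). The treated samples stood at 7.35 in replicate 2, 4.12 in replicate 3, 5.67 in replicate 4 and 5.71 in replicate 5, against 4.51, 5.16, 4.3, 5.3 and 4.77 in the controls. Replicate 3 lay below every control and replicate 2 was the highest Dbp value of the study. The group mean stood 0.63 above the next highest, against a pooled SD of 0.417. Without replicate 2 the difference was 0.36 (adjusted p = 0.54), and without replicate 3 it was 1.44 (adjusted p = 2.6e-05). The call was also lost without DE-71 0 replicate 1 (0.83, adjusted p = 0.057) or replicate 3 (0.78, adjusted p = 0.06). With Phenobarbital, Dbp averaged 4.86 ± 0.33 at 0, 4.9 ± 0.35 at 5 and 5.08 ± 0.18 at 45 mg/kg. With PCB126, Dbp averaged 4.48 ± 0.31 at 0, 4.86 ± 0.23 at 10, 4.67 ± 0.29 at 50 and 4.69 ± 0.11 at 250 mg/kg. Outside the DE-71 50 mg/kg group no Dbp difference exceeded the 0.38 seen at 10 mg/kg of PCB126.

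Tef, a relative of Dbp that binds the same D-box, was the steadiest member. With PBDE-47, Tef averaged 7.23 ± 0.17 at 0, 7.33 ± 0.14 at 0.1, 7.34 ± 0.15 at 15 and 7.3 ± 0.09 at 50 mg/kg. With DE-71, Tef averaged 7.43 ± 0.18 at 0, 7.41 ± 0.26 at 0.1, 7.56 ± 0.2 at 15 and 7.49 ± 0.32 at 50 mg/kg. With Phenobarbital, Tef averaged 7.4 ± 0.17 at 0, 7.37 ± 0.15 at 5 and 7.51 ± 0.1 at 45 mg/kg. The highest DE-71 value, 7.88, was that of DE-71 50 replicate 2. With PCB126, Tef averaged 7.37 ± 0.13 at 0, 7.51 ± 0.15 at 10, 7.45 ± 0.09 at 50 and 7.27 ± 0.07 at 250 mg/kg. The largest step between neighbouring groups was 0.06 and the largest dose difference 0.14, and no adjusted p was below 0.74.

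**Figure D1:**
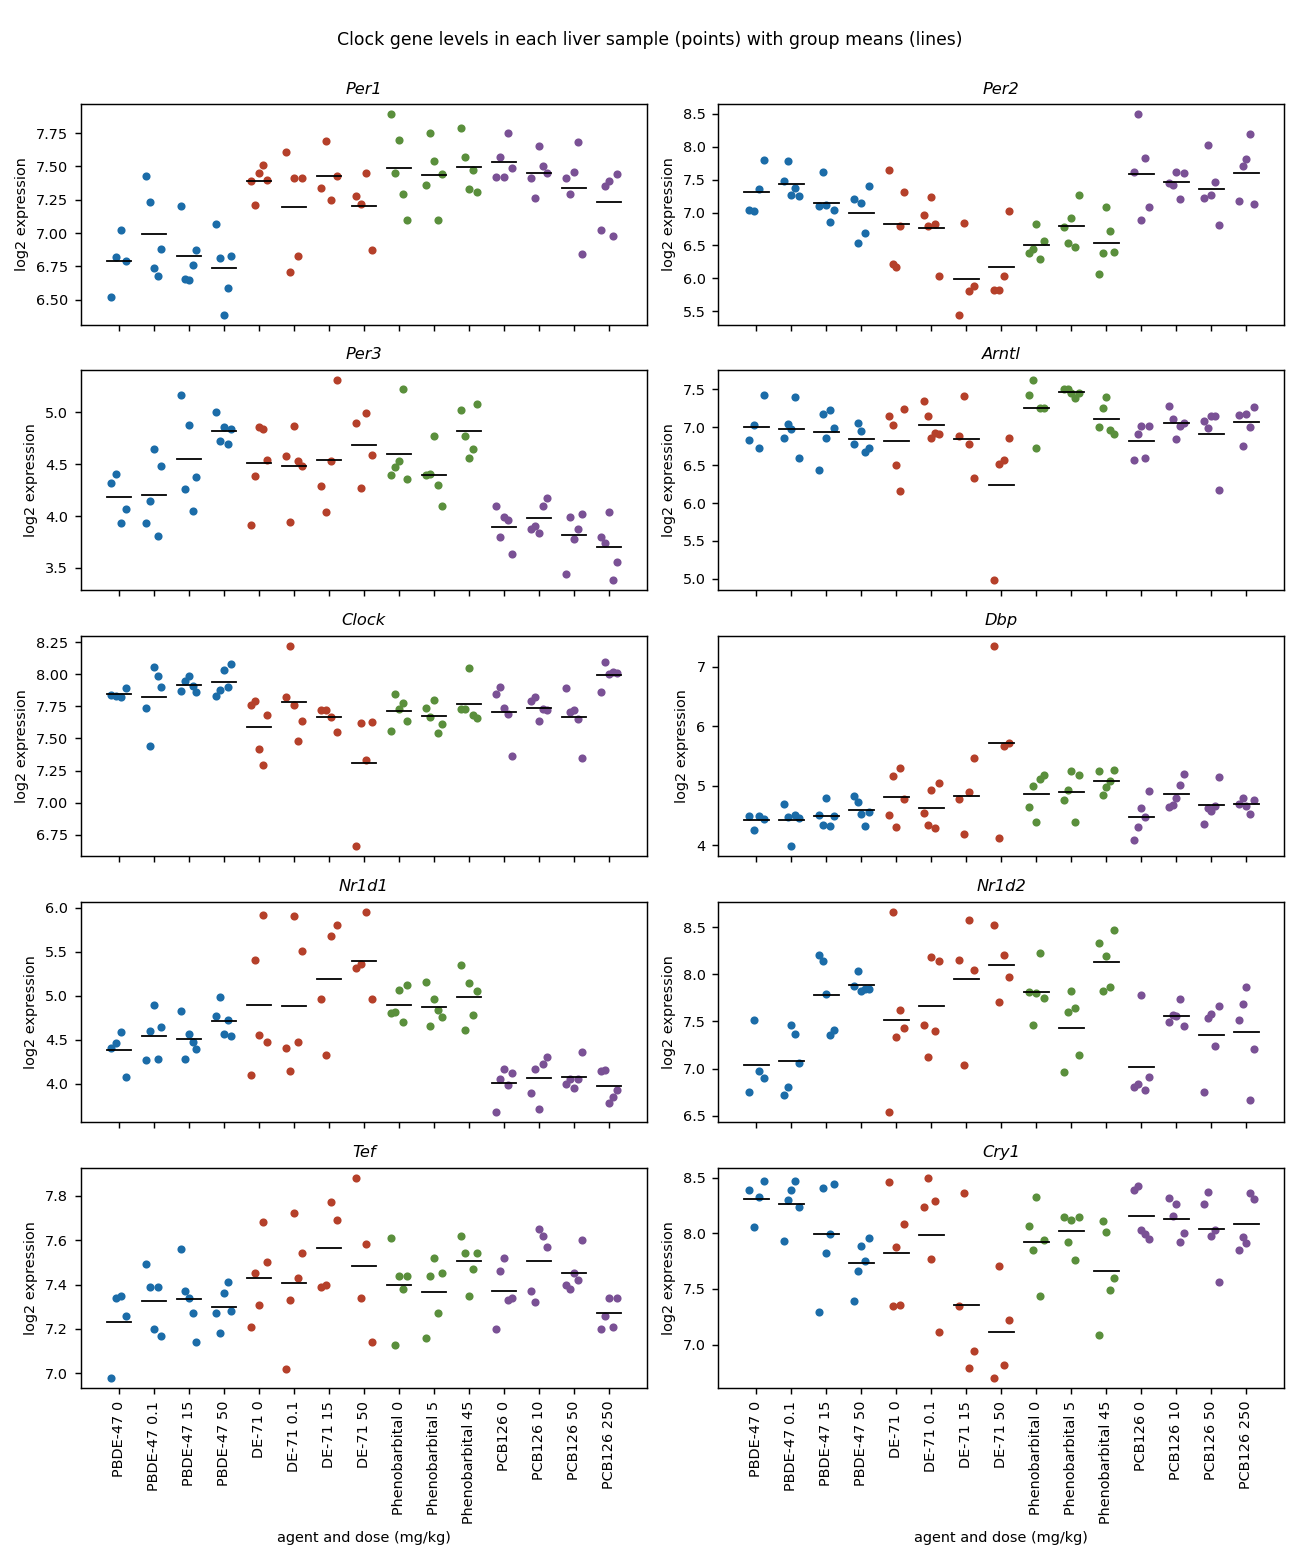
Log2 expression of the 10 clock genes (vertical axis, log2 units) in each of the 72 samples, 1 point each, by agent and dose (horizontal axis, mg/kg), with colours for agents and black lines for group means. DE-71 50 replicate 2 stands apart with Dbp at 7.35, Arntl at 4.98 and Clock at 6.66, and the DE-71 controls spread widely for Nr1d1 (4.1 to 5.92) and Nr1d2 (6.54 to 8.66).

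Few of the clock genes passed the test at any dose. DE-71 at 50 mg/kg called 2 of 10 members, Dbp higher and Cry1 lower, where 10.2% of all 14217 genes were called, 4.83% higher and 5.35% lower. There 7 of 10 members had an unadjusted p below 0.05, against 24.2% of all genes. The members do not vary independently, so these are not separate results. Without DE-71 50 replicate 2 the differences were -0.17 (SE 0.2) for Arntl, -0.06 (SE 0.12) for Clock and 0.36 (SE 0.24) for Dbp. They were -0.53 (SE 0.3) for Per2, 0.44 (SE 0.29) for Nr1d2, 0.53 (SE 0.27) for Nr1d1 and -0.58 (SE 0.26) for Cry1. PBDE-47 at 50 mg/kg called 0 of 10 against 4.03% of all genes (3 of 10 had an unadjusted p below 0.05 against 15.7%). The other 9 comparisons called 0 members. An unadjusted p below 0.05 was found for 1 of 10 members in 4 of them: Nr1d2 at 15 mg/kg of PBDE-47 (11.2% of all genes), Per2 at 15 mg/kg of DE-71 (10.3%), Nr1d2 at 10 mg/kg of PCB126 (2.67%) and Clock at 250 mg/kg of PCB126 (5.82%). In those 9 the share of all genes called was 0% at 0.1 mg/kg of either brominated agent, 0.823% at 15 mg/kg of PBDE-47 and 1.24% at 15 mg/kg of DE-71. It was 0.106% and 2.7% at 5 and 45 mg/kg of phenobarbital, and 0%, 0.00703% and 0.0563% at 10, 50 and 250 mg/kg of PCB126. Members whose groups did not overlap were Per3, Nr1d2 and Cry1 at 50 mg/kg of PBDE-47, where 8.43% of all genes did not overlap. In the other 10 comparisons 0 members met that condition, where the shares of all genes were 0.577% and 5.21% at 0.1 and 15 mg/kg of PBDE-47 and 0.499%, 3.02% and 5.58% at 0.1, 15 and 50 mg/kg of DE-71. They were 2.28% and 5.63% at 5 and 45 mg/kg of phenobarbital and 0.45%, 0.64% and 1.15% at 10, 50 and 250 mg/kg of PCB126. The count at 50 mg/kg of PBDE-47 depended on how the fit was made: with all 74 arrays, joint quantile normalization or array weights, Per3 and Nr1d2 were both called, and with a fit on those 2 groups alone Cry1 was called too. With the mean of all probe sets of a gene the Per3 difference was 0.29 (adjusted p = 0.21). The DE-71 50 mg/kg calls depended on it as well: neither Dbp nor Cry1 was called with array weights (adjusted p = 0.12 and 0.13) or with those 2 groups alone (0.43 and 0.24). Cry1 was not called with the mean of all probe sets (0.051) or the replicate block (0.066), and the filter on dim probe sets removed Dbp. The main fit gave each gene 1 SD for all groups, while Dbp had a pooled SD of 0.72 with DE-71 and 0.2 with PBDE-47. For members that spread more with DE-71, the limma p values may thus be too small there and too large with PBDE-47. The median difference over the 10 members was 0.08 at 50 mg/kg of PBDE-47 and -0.06 at 50 mg/kg of DE-71, and over all genes -0.016 and 0.002.

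**Figure D2:**
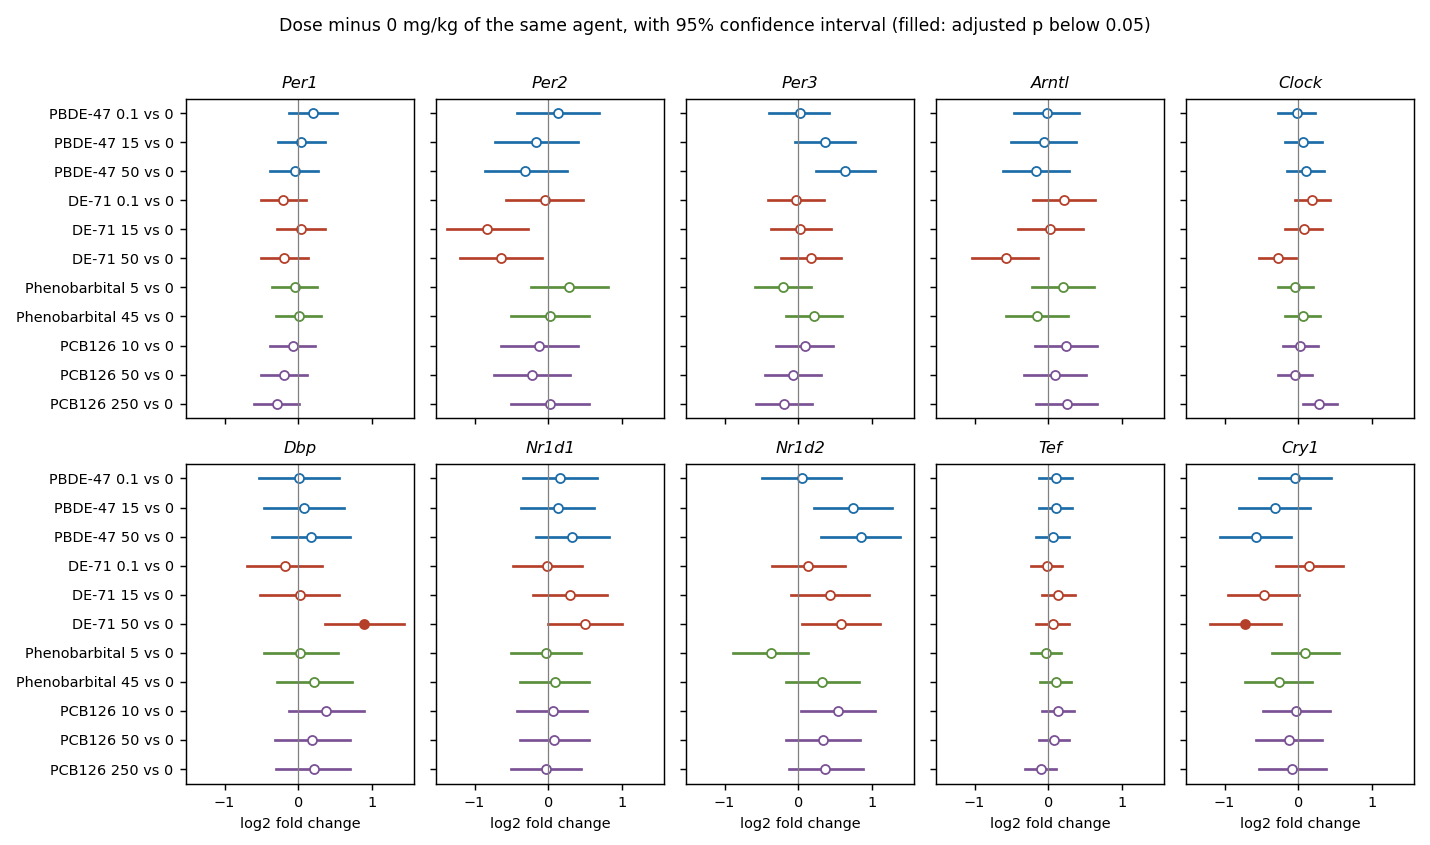
Log2 difference of each dose from 0 mg/kg of its own agent (horizontal axis, log2 units) for each clock gene, with 95% confidence intervals as lines and called differences as filled points. The filled points are Dbp (0.9) and Cry1 (-0.72) at 50 mg/kg of DE-71.

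The 2 brominated agents share their doses, so their responses could be set against each other. DE-71 minus PBDE-47 gave 0 called members at 0.1, 15 and 50 mg/kg, where 0%, 0.0141% and 0.12% of all genes were called. Clock was the single member with an unadjusted p below 0.05 (1 of 10, against 11.4% of all genes at that dose), and its adjusted p of 0.41 was the lowest, at 50 mg/kg (-0.38, interval -0.73 to -0.02). The Dbp response was 0.73 larger with DE-71 (interval -0.03 to 1.49) and the Cry1 response 0.13 lower (interval -0.81 to 0.55), so differences of these sizes are neither shown nor set aside. The 4 control groups differed in 5 of 10 members (Per1, Per2, Per3, Nr1d1 and Nr1d2; F test, adjusted p of 0.00083, 0.004, 0.0087, 0.0037 and 0.023), where 36.6% of all genes did. Agent and processing cannot be told apart here. After joint quantile normalization 4 members were called.

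Markers of other liver cells were set beside these comparisons. With DE-71 at 50 mg/kg, 2 of 8 hepatocyte markers, 2 of 6 stellate cell and fibroblast markers and 1 of 4 endothelial markers fell. There 1 stellate marker and 1 of 3 cholangiocyte markers rose. Of all genes 5.35% fell and 4.83% rose in that comparison. The mean of the hepatocyte list ran from 12.55 to 12.91 in that group and from 12.75 to 13.14 in its controls, and that of the stellate list from 6.81 to 7.54 and from 7.3 to 7.67. DE-71 50 replicate 2, the sample with the highest Dbp and the lowest Arntl and Clock, had the lowest hepatocyte (12.55), stellate (6.81) and endothelial (7.18) means of all 72 samples. With PBDE-47 at 50 mg/kg, 5 of 7 Kupffer cell and macrophage markers fell, where 4.03% of all genes were called. The mean of that list ran from 7.61 to 8.12 against 8.3 to 8.76 in the controls. Epcam, 1 of 3 cholangiocyte markers measured, rose at 15 and 50 mg/kg of both brominated agents and at 45 mg/kg of phenobarbital (0.74 to 1.35). It was the only one of them called there. The median difference of that list was -0.06 at 50 mg/kg of PBDE-47, -0.08 with phenobarbital, and 0.13 to 0.34 in the remaining groups. The part of these markers in the clock values was not tested. Hepatocyte markers averaged between 12.55 and 13.37 in all 72 samples, and lymphocyte markers between 3.75 and 4.7.

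Samples of the same group differed more in the clock genes than in most genes. The pooled within-group SD was 0.43 for Per2, 0.417 for Dbp, 0.412 for Nr1d2, 0.386 for Nr1d1, 0.37 for Cry1, 0.344 for Arntl, 0.311 for Per3 and 0.248 for Per1. The median over all genes was 0.179. Per2, Dbp, Nr1d2, Nr1d1 and Cry1 thus stood between the 95th and the 97.1th percentile of all genes, Arntl at the 93.8th, Per3 at the 91.3th and Per1 at the 80.8th. Clock (0.189, 56th percentile) and Tef (0.166, 39.2th percentile) varied like an average gene. Against genes of similar brightness, within 0.5 log2 units of each member's mean, the percentile was between 91.6 and 97.2 for Per2, Per3, Arntl, Dbp, Nr1d1, Nr1d2 and Cry1.

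The spread was widest with DE-71. There the pooled SD was 0.72 for Dbp, 0.68 for Nr1d1, 0.59 for Nr1d2, 0.57 for Per2, 0.55 for Cry1 and 0.52 for Arntl, against 0.2 for the median gene. With PBDE-47 the same genes had 0.2, 0.22, 0.31, 0.31, 0.3 and 0.28, against 0.17. Phenobarbital gave 0.23 to 0.32 and PCB126 0.2 to 0.46 over these 6 genes. The median gene had 0.15 with phenobarbital and 0.17 with PCB126. Leaving out all DE-71 samples placed Per2 at the 95.8th percentile, Nr1d2 at the 94.2th, Cry1 at the 90.7th and Nr1d1 at the 75.7th. In part the spread was present in animals given no agent: DE-71 controls had an SD of 0.75 for Nr1d1, 0.76 for Nr1d2 and 0.65 for Per2. Dbp and Arntl had 0.42 and 0.47 in these controls, and 1.32 and 0.85 at 50 mg/kg of DE-71. In the control groups of the other agents the SD was 0.18 to 0.22 for Nr1d1, 0.27 to 0.43 for Nr1d2 and 0.21 to 0.64 for Per2. The time of day at which each liver was taken is not in the labels, and its part in this spread was not tested.

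**Figure D3:**
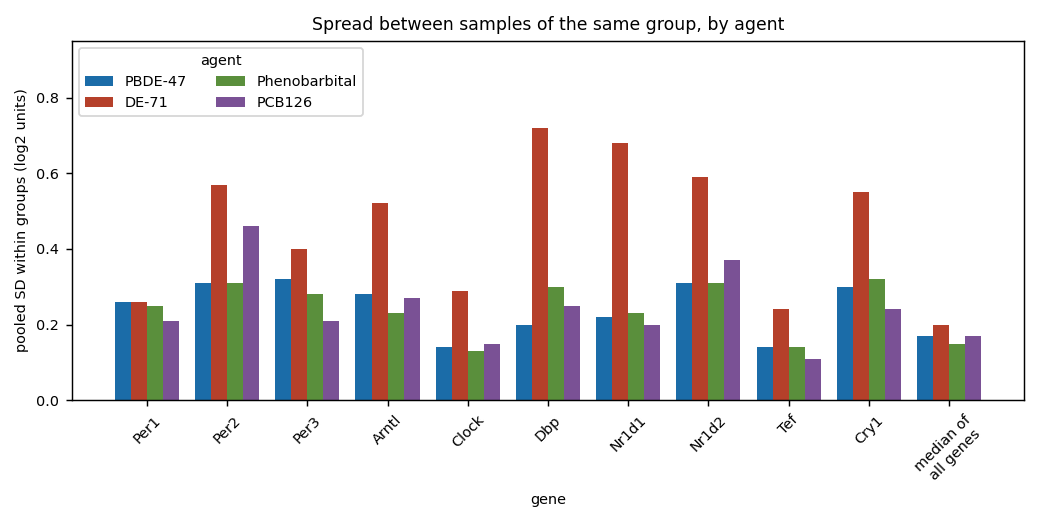
Pooled SD between samples of the same group (vertical axis, log2 units, from 0) for each clock gene and for the median gene, with a bar for each agent. DE-71 has the tallest bar for 9 of the genes, level with PBDE-47 for Per1, and reaches 0.72 for Dbp.

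The members did not vary independently. Deviations from the group mean were correlated over 72 samples for all 45 pairs, with two-sided permutation tests adjusted over the pairs. A pair is called where both Pearson's r and Spearman's rho passed 0.05. The permutations treated all samples alike although DE-71 samples spread more, so these p values may be too small. In all, 29 pairs were called, 16 positive and 13 negative, and 20 of them had the same sign of r within each of the 4 agents. The share of called pairs among other genes was not computed, so this count does not set the clock genes apart. The highest r of Arntl with any of 5517 other genes was 0.83. A first group held Dbp, Nr1d1, Nr1d2, Tef and Per3, whose 10 pairs were all positive and called, from r = 0.29 (Per3 and Tef) to 0.56 (Nr1d1 and Nr1d2). A second held Cry1, Arntl, Clock and Per2, positive among themselves, with 5 of 6 pairs called. All 20 pairs across these groups were negative and 13 were called. The grouping was read off the same values and is a description.

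Cry1 took part in the 3 strongest pairs. With Nr1d1 it gave r = -0.66 and rho = -0.58 (permutation adjusted p = 5.6e-05 and 9e-05, both from the smallest p that the permutations can give), and r was -0.67 without the 2 samples farthest out. Within agents it was -0.82 for DE-71, -0.61 for PCB126, -0.47 for PBDE-47 and -0.08 for phenobarbital. With Nr1d2, Cry1 gave r = -0.64 (rho -0.59), with Dbp -0.61 (rho -0.65) and with Per3 -0.56 (rho -0.50), each with the same permutation adjusted p of r and the same sign in all 4 agents. With Per2 it was positive, r = 0.53 and rho = 0.48. A liver with high Cry1 for its group thus tended to have high Per2 and low Nr1d1, Nr1d2, Dbp and Per3.

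Arntl and Clock rose and fell together (r = 0.58, rho = 0.48), with r = 0.40 once DE-71 50 replicate 2 was left out. Arntl and Dbp, textbook opposites in phase, gave r = -0.46 (rho = -0.28, adjusted permutation p = 0.00066 and 0.027), which became -0.19 (adjusted p = 0.14) without that sample and -0.23 without the 2 samples farthest out. The r of -0.46 thus leaned on those samples. Nr1d1 and Arntl, a repressor and its target, gave r = -0.40 (rho = -0.37, permutation adjusted p = 0.0016 and 0.0038), and -0.50 without that sample. Within the 4 agents r was negative, from -0.17 with PCB126 to -0.53 with PBDE-47. Per1 stood apart: of its 9 pairs 1 was called, with Tef (r = 0.25, rho = 0.33).

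The pairs leaned on DE-71. Without the 18 DE-71 samples 10 pairs were called over the remaining 54, 5 positive and 5 negative, and each was also called with the same sign over all samples. Of the 8 pairs of Cry1 called over all samples, 6 were called there: r was -0.49 with Per3, 0.47 with Per2, -0.47 with Dbp, -0.39 with Nr1d2, 0.39 with Clock and -0.38 with Nr1d1. Its pairs with Arntl (0.34) and Tef (-0.29, adjusted p = 0.087) were not. Within the first group (Dbp, Nr1d1, Nr1d2, Tef and Per3), only Per3 with Nr1d2 (0.56) and Nr1d2 with Tef (0.38) stayed called. Its remaining pairs lost the call, with r from 0.01 (Nr1d1 and Tef) to 0.31 (Per3 and Nr1d1), and 0.27 for Nr1d1 and Nr1d2. Its positive block thus rested largely on DE-71. Arntl with Nr1d1 (-0.33), with Clock (0.26) and with Dbp (-0.08) was not called either.

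**Figure D4:**
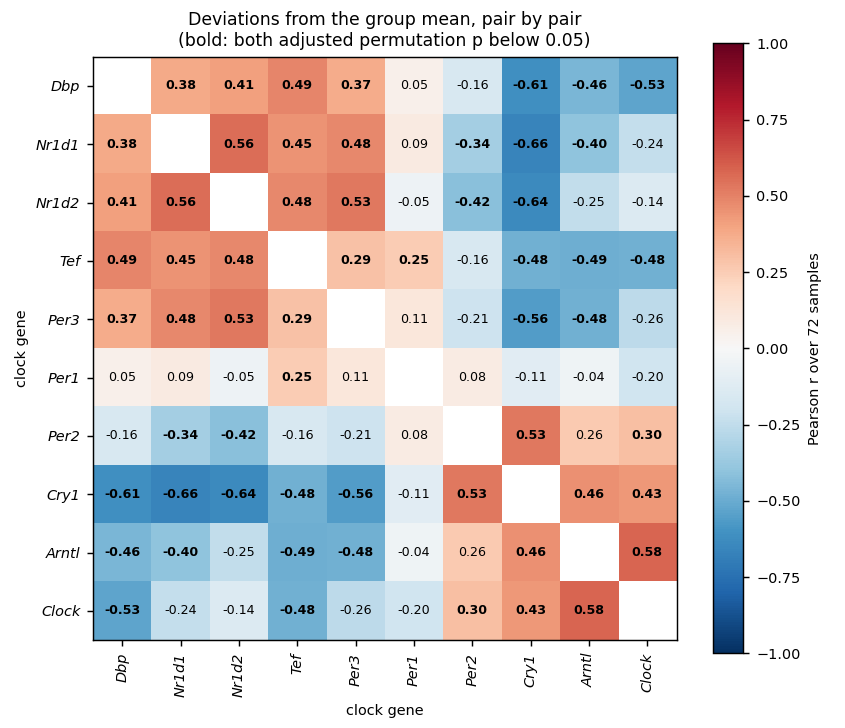
Pearson's r of the deviations from the group mean for each pair of clock genes over 72 samples (colour scale from -1 to 1, both axes list the genes), with called pairs in bold. Dbp, Nr1d1, Nr1d2, Tef and Per3 form a positive block that is negative against Per2, Cry1, Arntl and Clock, with r = -0.66 for Nr1d1 and Cry1, and Per1 stands outside both.

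**Figure D5:**
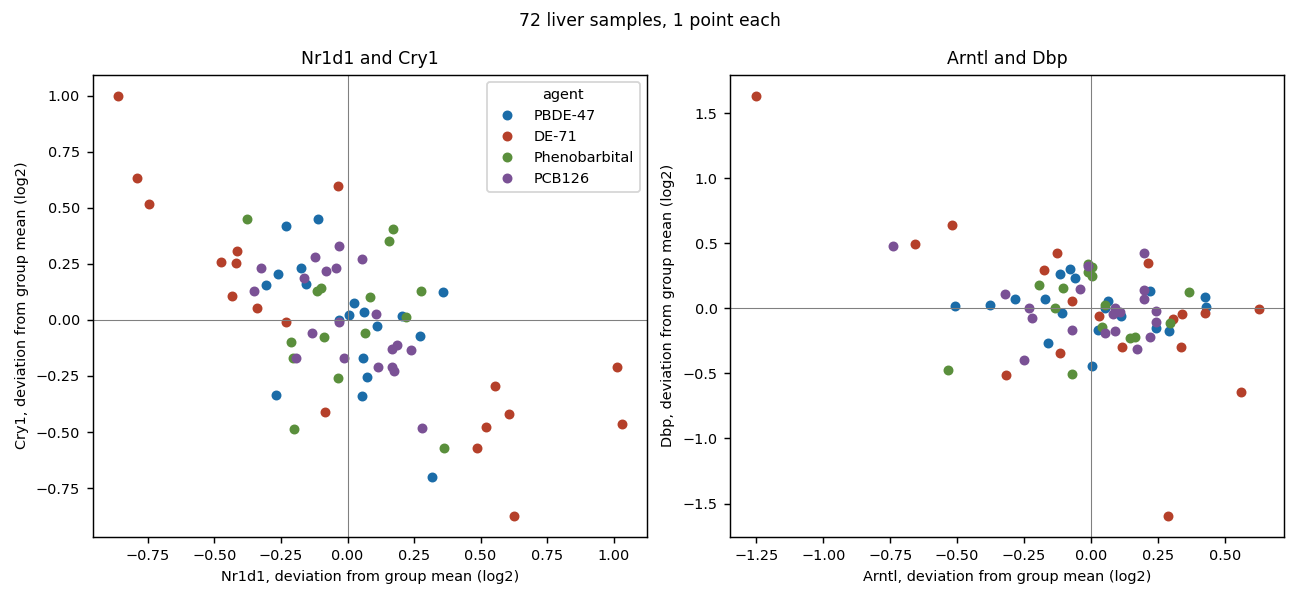
Deviations from the group mean (both axes, log2 units) in 72 samples, 1 point each and coloured by agent, for Nr1d1 against Cry1 (left) and Arntl against Dbp (right). The left cloud slopes downward (r = -0.66) with DE-71 samples at both ends, and in the right panel DE-71 50 replicate 2 lies far to the upper left and DE-71 50 replicate 3 far at the bottom.

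A single axis described much of this. The first principal component of the standardized deviations of the 10 genes held 44% of their variance, with loadings of 0.35 for Nr1d1, 0.34 for Dbp, Nr1d2 and Tef, 0.32 for Per3, 0.07 for Per1, -0.24 for Per2, -0.3 for Clock, -0.33 for Arntl and -0.41 for Cry1. The 5 lowest scores were all DE-71 samples, from -5.62 (15 mg/kg replicate 3) to -3.46, and so were the 4 highest, from 3.75 to 6.17 (50 mg/kg replicate 2). Samples at the ends came from the 0 mg/kg group as well: DE-71 0 replicate 1 scored -5.14 and DE-71 0 replicate 4 scored 4.4. DE-71 controls and dosed animals alike were thus found at both ends.

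Measures of the whole array were set beside the clock values. The 3′ minus 5′ log2 difference of the GAPDH control probe sets, which grows as RNA is less intact, ran from -0.09 to 3.11 with a median of 0.37, and was 0.45 in DE-71 50 replicate 2. Over 30 relations tested in this family, Arntl was the only member called against it (r = -0.51, rho = -0.61, permutation adjusted p = 0.0001 for each), with r between -0.44 and -0.72 within the 4 agents. The beta-actin control probe sets gave r = -0.54. Arntl also followed the first principal component of 5517 other genes (16.7% of their variance; r = 0.76, rho = 0.71, permutation adjusted p = 0.0001 for each, r = 0.65 without the 2 farthest samples), as did Per2 (r = 0.40, rho = 0.37). Clock gave r = 0.50 (adjusted p = 0.00015) with rho = 0.30 (adjusted p = 0.057) and was not called, with r = 0.31 without the 2 farthest samples. The component itself gave r = -0.55 with the GAPDH measure and -0.58 with the beta-actin measure. For Dbp, Nr1d1, Nr1d2 and Cry1 the r with that component lay between -0.20 and 0.16, and none was called. With the component regressed out, 30 pairs were called, 27 of them among the 29, Nr1d1 and Cry1 at -0.65 and Arntl and Clock at 0.35. Arntl and Dbp gave -0.48 there, with DE-71 50 replicate 2 kept in. DE-71 50 replicate 2 had the lowest mean correlation with its group of all samples (0.9783) and a component score of -3.51, next to the lowest.

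Genes most like Arntl were sought among the 5517 other genes by r over 72 samples, as a description. They were Rraga (0.83), Etnk1 (0.81), Fam120a (0.80), Ik (0.78), Fndc3b (0.77) and Arfgef1 (0.77). The most opposite were Use1, Rpl22 and Bloc1s1 (-0.77 each), Ndufb1 (-0.76), and Ndufb7 and Nudt14 (-0.75 each), among them a ribosomal protein gene and genes of mitochondrial complex I. For Dbp the likeness was weaker: Surf1 (0.57), Mrpl52 (0.55), Psmc3 and Hmox2 (0.53 each), and Hsd17b2 and Mrps7 (0.52 each). The most opposite to Dbp were Pakap (-0.70), Lsm14a and Ythdc1 (-0.65 each), Lgalsl (-0.63), Adh1c (-0.62) and Pikfyve (-0.61). Without DE-71 50 replicate 2 these r lay between 0.71 and 0.82 and between -0.64 and -0.77 for Arntl, and between 0.24 and 0.49 and between -0.31 and -0.58 for Dbp.

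Other genes of the clock were measured for 15 of 20 listed. None was called in 9 of the 11 dose comparisons. Nfil3, the repressor that competes with Dbp and Tef for D-boxes, fell by 0.61 at 50 mg/kg of PBDE-47 (adjusted p = 0.029, no overlap with the controls). With DE-71 at 50 mg/kg, Hlf, a further relative of Dbp and Tef, fell by 0.47 (adjusted p = 0.04) and Sfpq, a PER-associated splicing factor, by 0.5 (adjusted p = 0.049). The median difference of the list there was -0.19 against 0.002 over all genes, of which 5.35% fell. Beside the members, Npas2, a stand-in for Clock, gave r = 0.45 with Arntl and -0.44 with Dbp, and Rora, the activator at ROR elements, 0.59 with Arntl. Sfpq (0.73) and Fbxw11 (0.7) gave higher r with Arntl.

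Liver genes known to be driven by the clock or by D-box factors were measured for 17 of 19 names listed. The names without a value, Nocturnin and Ccrn4l, are other names of Noct, which was measured. Alas1, the first enzyme of heme synthesis, rose by 1.32 and 1.49 at 15 and 50 mg/kg of PBDE-47 and by 1.39 and 1.05 at the same doses of DE-71. Por, the electron donor of cytochromes P450, rose by 0.82, 0.95, 0.98 and 1.34 in these groups and by 1.08 with phenobarbital at 45 mg/kg. Insig2, a brake on sterol synthesis, rose by 0.8 at 50 mg/kg of PBDE-47, by 1.11 and 0.84 at 15 and 50 mg/kg of DE-71 and by 0.8 with phenobarbital. These genes are also known CAR targets, or respond to drugs. Cyp7a1, which opens the conversion of cholesterol to bile acids, fell by 2.31 with phenobarbital at 45 mg/kg, and Gys2, the liver glycogen synthase, by 0.48 at 50 mg/kg of DE-71. Pdk4, a brake on glucose oxidation, rose by 0.84 there, and is named outside the rule after its value was seen. The other 11 genes were not called in any comparison, and the list median was at most 0.15 in size. In their deviations, Nr1i3, which encodes CAR, followed Nr1d2 (r = 0.46) and opposed Cry1 (-0.56), as a description over 72 samples.

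Lists that can move with stress, temperature or feeding were counted at 50 mg/kg of DE-71 as well. Of 10 glucocorticoid-responsive genes 1 fell, the kinase gene Sgk1 (-0.94, adjusted p = 0.028), and of 6 heat-shock genes 1 fell, Hspb1 (-0.69, adjusted p = 0.02). Of 10 immediate-early genes 1 fell, Ier2 (-0.57), and of 8 feeding and fasting genes 1 fell, Srebf1, the driver of fat synthesis (-1.01). In that comparison 5.35% of all genes fell, so 1 call in lists this short does not set them apart. With PBDE-47 at 50 mg/kg, where 4.03% of all genes were called, Hspb1 (-0.74) and Ier2 (-0.59) fell too. Phenobarbital at 45 mg/kg, where 2.7% of all genes were called, lowered Egr1 (-1.71), Scd (-3.02) and Srebf1 (-0.87). The part of these genes in the clock values was not tested.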

How the data were processed

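The authors deposited log2 expression values per probe set, made with RMA (robust multi-array average) per the submitters' processing notes, with no version. The genome build is not given in the sources used here. Array medians lay between 4.816 and 5.036, and arrays have no counting depth, so their number limits the precision. After 57 control probe sets were left out, each gene was represented by its brightest single-gene probe set (14217 genes, named through the 2016 annotation of the array and RefSeq).

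Near-identical arrays of the same group (root mean square difference below 0.3) were averaged. One linear model with 15 group means was fitted with limma 3.58.1 in R 4.3.3 (57 residual degrees of freedom), p values being two-sided and adjusted by Benjamini and Hochberg over all genes within each comparison. Pairs were tested with 100000 permutations of all residuals. Their spread differed between agents (Nr1d1 had a pooled SD of 0.68 with DE-71 and 0.2 with PCB126). The residuals were thus not fully exchangeable, and the permutation p values may be too small. The limma model likewise gave each gene 1 SD for all groups. For genes that spread more with DE-71, its p values may be too small there and too large for other agents. On simulated data with the sizes of the DE-71 50 mg/kg comparison, 78% of 1.5-fold and 94% of 2-fold changes were recovered among 14217 genes, with 10 false calls. Each size was given to 50 genes drawn at random, and each gene had the same SD in all groups. The median gene had an SD of 0.179, while members reached 0.43, and Dbp had 1.32 in the DE-71 50 mg/kg group. These rates therefore do not carry over to the members. The members, the lists and the rule for named genes (all members, up to 4 called genes per list and comparison, the 6 genes most like and most opposite to Arntl and Dbp) were chosen with earlier results of these data known.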

Additional observations from a re-analysis of the deposited data

Results flagged for a closer look

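In 6 of the 150 sets of a clock gene in a group, a single sample lay far from the others of its group by Dixon's criterion, which chance alone meets in about 1 of 20 groups. Per2 stood at 7.02 in DE-71 50 mg/kg replicate 5, against 5.83 to 6.03 in the other samples of the group. Per3 stood at 5.23 in phenobarbital 0 mg/kg replicate 4, against 4.36 to 4.53. Nr1d2 stood at 7.78 in PCB126 0 mg/kg replicate 3, against 6.77 to 6.91, and Clock stood at 8.05 in phenobarbital 45 mg/kg replicate 3, against 7.66 to 7.73. PCB126 50 mg/kg replicate 5 stood apart for Arntl, at 6.17 against 6.99 to 7.15, and for Nr1d1, at 4.36 against 3.95 to 4.05. That sample also had the lowest score of all on the first principal component of the other genes (-3.6).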

How the results depend on the processing

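The number of clock genes called at 50 mg/kg of PBDE-47 was 0. It was 2 with all 74 arrays as separate samples, 2 with joint quantile normalization, 2 with array weights, 1 with the filter on dim probe sets, 1 with the replicate block and 3 with only the samples of those groups, and between 0 and 1 when 1 sample was left out. At 50 mg/kg of DE-71 it was 2, and 1 with the dim filter (which removes Dbp), with the mean of all probe sets and with the replicate block, 0 with array weights and with only those groups, and between 0 and 4 without 1 sample. At 15 mg/kg of DE-71 it was 0, and 1 with all 74 arrays and with array weights (Per2), and between 0 and 1 without 1 sample. The control groups differed in 5 members, in 3 with the dim filter, which also removes Per3 and Nr1d1. The 29 called pairs became 10 without the DE-71 samples, an alternative added, like the principal component and DE-71 50 replicate 2, after the data were seen. The spread exceeded that of the median gene for 9 of 10 members and for 8 to 10 under its alternatives. No called difference changed sign under any alternative run. Samples with the same replicate number within an agent did not deviate together on average (mean r from 0 to 0.05, single pairs from -0.54 to 0.61). A mean cannot tell whether some numbers pair samples, and no label states a pairing. The causes were not tested, beyond what the filter and smaller fits remove by construction. The labels name no sampling time.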
